A study of Homo sapiens with 6 samples.

Results

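The p53 family and p53 target genes were described in MDA-MB-231 cells after guadecitabine. The list held 33 genes, namely the p53 relatives TP63 and TP73 and 31 genes known as targets of p53, and 32 of the 33 symbols were found among the 17100 transcripts of the deposited table. TIGAR was not listed under that symbol and is described separately under its older symbol, C12orf5. MDA-MB-231 is an established line from a breast adenocarcinoma, grows as triple-negative cells and carries mutant p53. RNA was sequenced from 3 vehicle libraries and from 3 libraries of cells given guadecitabine (SGI-110), a DNA methyltransferase inhibitor that releases decitabine, at 1 µM for 96 h and then kept without drug for 24 h. The study's methods give RNA from 3 independent experiments and do not say whether each held a vehicle and a guadecitabine library. The labels give neither the composition nor the duration of the vehicle treatment. A figure legend of the study gives 96 h for treatment with vehicle or guadecitabine. Both groups are the same line, so that no sample with normal p53 was compared. Library totals ranged from 17602570 to 22277442 counts in vehicle and from 8792127 to 21410849 counts after guadecitabine.

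The p53 protein is a transcription factor that is stabilised by DNA damage and other stress and binds DNA as a tetramer. Its binding site is a pair of half-sites, each with purines, a C, A or T letters, a G and pyrimidines in that order, and p63 and p73, the products of TP63 and TP73, bind closely related sites. The products of the target genes stop the cell cycle, repair DNA, balance redox state and metabolism, promote apoptosis, or act back on p53 itself, as MDM2 does by marking p53 for degradation. Missense mutants of p53 usually lose binding to many of these sites, and several target genes are also driven by p63, p73 or factors unrelated to p53. In breast cancer cells CDKN1A, which encodes the cell cycle inhibitor p21, is the best known of these genes.

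Sequences that match the p53 site were searched on GRCh37, the assembly that the submitters name hg19, within 2500 bp on either side of the transcript start listed for each gene. A match had at least 18 of the 20 letters of the p53 consensus, an intact C and G core in both half-sites and a spacer of at most 1 bp, and since this consensus reads the same on both strands each match covers both. Of the 32 genes, 12 had at least 1 match (37.5%), against 7.37% of all transcripts in the table and 7.18% of the genes tested. The genes were listed because they are known p53 targets, so that these shares are given as a description. EDA2R, SPATA18 and BTG2, whose sequences are not printed, were the other genes with a match. CCNG1, DDB2 and EDA2R had 2 matches each, and of CCNG1 and DDB2 the one with more matching letters is shown. The matches of 9 genes are shown to set the sequences beside the changes in expression, with 5 genes that rose after guadecitabine first, then CCNG1, which fell, and 3 that did not pass the test. Capitals mark the core of each half-site, and each sequence is given 5′ to 3′ on the strand of the gene.
CDKN1A: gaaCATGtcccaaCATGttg
AEN: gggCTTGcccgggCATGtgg
GADD45A: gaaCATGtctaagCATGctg
ZMAT3: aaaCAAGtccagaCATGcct
GDF15: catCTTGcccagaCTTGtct
CCNG1: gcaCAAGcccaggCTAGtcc
MDM2: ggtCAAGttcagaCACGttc
PLK2: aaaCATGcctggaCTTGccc
DDB2: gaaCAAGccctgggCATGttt

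The CDKN1A match lay at chr6:36644226-36644245 (plus strand) and overlapped the edge of the first exon listed for this transcript, centred 2 bp upstream of its start. That start belongs to 1 of the transcripts of CDKN1A, and distances to other starts were not measured. The ZMAT3 match, with 20 of 20 letters, lay in an intron at chr3:178787976-178787995 (minus strand), 1670 bp downstream of the start. GADD45A had 19 of 20 letters at chr1:68152458-68152477 (plus strand), also in an intron, 1608 bp downstream. The AEN match at chr15:89164537-89164556 (plus strand) lay 20 bp downstream of the deposited start and outside the GENCODE exons and introns of that gene, and the GDF15 match at chr19:18496118-18496137 (plus strand) lay 840 bp upstream of the deposited start in an intron of a longer GENCODE transcript. For the genes that did not rise, the CCNG1 match shown lay in an intron at chr5:162864932-162864951 (plus strand) and the MDM2 match in an intron at chr12:69202703-69202722 (plus strand). The PLK2 match lay upstream of the gene at chr5:57758101-57758120 (minus strand) and the DDB2 match shown in an exon at chr11:47236530-47236550 (plus strand), and both had 20 of 20 letters. By call, 5 of the 9 genes that rose, 1 of the 5 that fell and 4 of the 15 tested genes that did not pass had a match. Over all genes tested, 7.49% of those that rose and 6.99% of those that fell had a match. The differences between these shares were not tested. A match with all 20 letters was present in ZMAT3, which rose, and in PLK2 and DDB2, which did not pass the test, and a match describes letters and not binding.

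After guadecitabine, 14 of the 29 tested members changed at an adjusted p of 0.05 (48.3%), of which 9 rose (31.0%) and 5 fell (17.2%). Over all 13322 genes tested, 37.7% changed, 19.3% rose and 18.4% fell, and the difference between these shares and those of the members was not tested. CDKN1A had the largest rise among the members, with 328% of its vehicle level, and CYFIP2 and TP73 had the largest falls, to 23.5% and 25.8%. The other 11 changes were below 2-fold. The median log2 fold change of the tested members was 0.16, against 0.02 over all genes tested, and 18 of 29 had a positive value. The test was edgeR's quasi-likelihood test on the counts, and adjusted p-values are those of Benjamini and Hochberg over all genes tested. In bulk RNA, fewer cells that express a gene and less RNA per cell cannot be told apart.

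**Figure D1:**
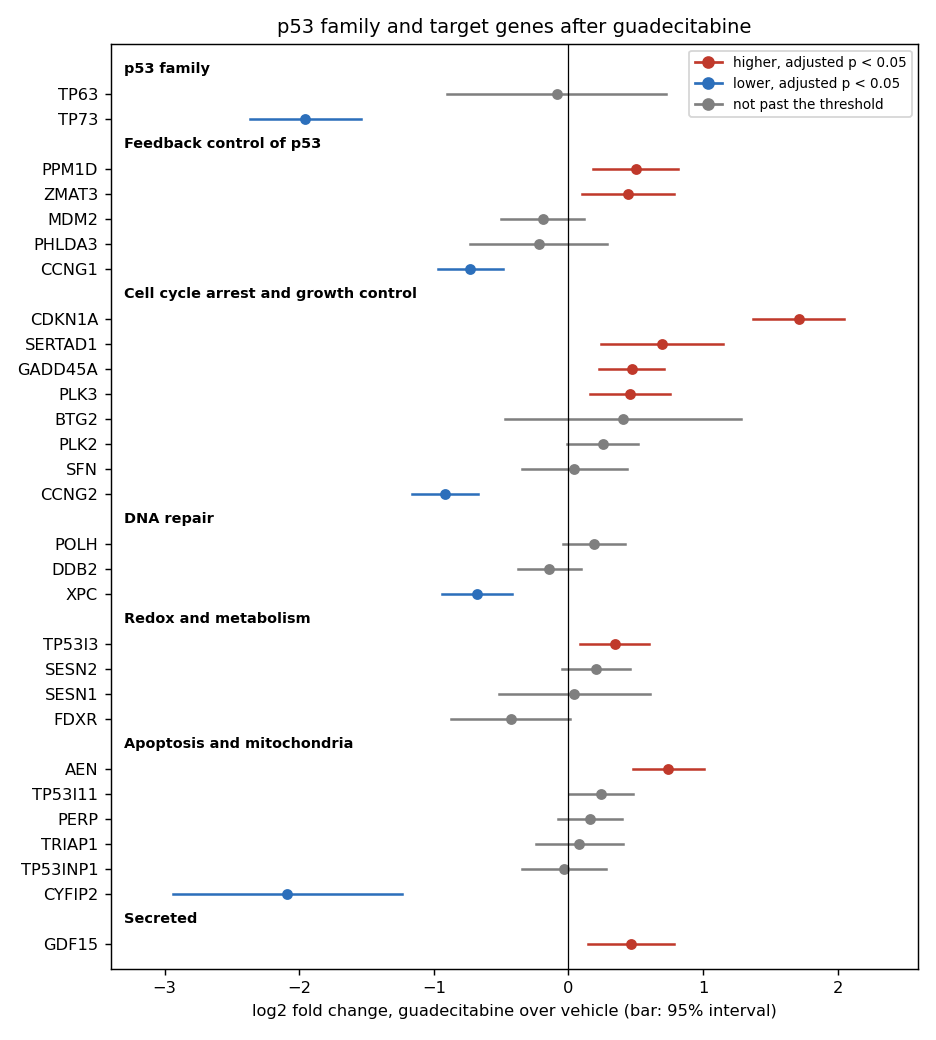
Log2 fold change of the 29 tested p53 family and target genes, guadecitabine over vehicle, in order of role, with bars for the 95% interval of the edgeR fit. CDKN1A lies to the right of all other genes at 1.71, and TP73 at -1.95 and CYFIP2 at -2.09 lie far to the left, while most other genes lie within 1 log2 unit of 0.

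Of the markers listed for the line, VIM, CD44, AXL and KRT18 were at 1946 to 53209 reads per kb, while PGR had 0 counts and ESR1 0 or 1 count in each library but vehicle replicate 3. The other markers listed as low in this line were detected in every library, with 552 to 1974 counts for ERBB2, 90 to 466 for EPCAM and 6 to 87 for CDH1. Of 7 listed markers of other cell types, GFAP at 77 to 453 counts and PECAM1 at 39 to 104 counts were detected in every library, and the summed counts of the 7 were 406 to 660 in vehicle and 137 to 343 after guadecitabine. The part of these other cell markers in the results was not tested. Vehicle replicate 3 stood apart from the other libraries, listing just 20 transcripts at 0 where vehicle replicates 1 and 2 listed 2498 and 2517. It held a median of 7.78 counts per kb of exon on the 2782 genes with at most 1 count in each of these replicates, and the part of this background in the values of weakly expressed members was not tested beyond leaving the library out.

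Of the p53 relatives, TP73 fell after guadecitabine and TP63 did not pass the test. Normalized counts, used from here on, are TMM-scaled to the mean library total of 17911210. TP73, on chr1:3569129-3652765 (plus strand), had 238, 227 and 188 normalized counts in the vehicle libraries and 60.7, 57.0 and 50.5 after guadecitabine. Each guadecitabine library lay below each vehicle library, with 218 ± 26.5 normalized counts in vehicle and 56.0 ± 5.18 after guadecitabine (SD, n = 3). The log2 change of TP73 was -1.95 ± 0.183 (SE, adjusted p = 6.04e-05), and it was -2.05 without vehicle replicate 3. TP63, on chr3:189349216-189615068 (plus strand), had 34.3, 42.2 and 46.1 normalized counts in vehicle and 44.5, 30.5 and 39.4 after guadecitabine, and these ranges overlapped. Its log2 fold change of -0.09 (adjusted p = 0.868) had a 95% interval of -0.90 to 0.72 on the log2 scale, which leaves room for a change of over 1.5-fold in either direction at this depth. Both genes are made as long isoforms with an activating N-terminal domain and short ones without it, and a single count per gene does not separate them. Exons of TP73-AS1 on the opposite strand cover 9.42% of the exon bases of TP73, and since no use of strand is stated for the counting, reads of the 2 genes cannot be told apart there.

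**Figure D2:**
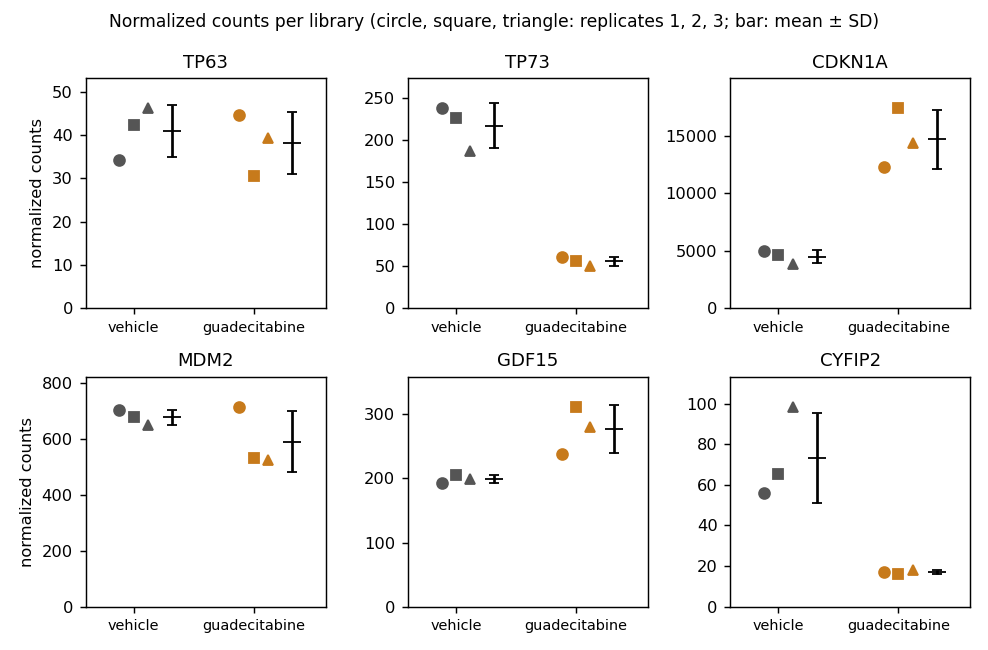
Normalized counts of 6 members in each library, with the mean and SD (n = 3) beside the points of each group and all axes starting at 0. The groups are apart for TP73, CDKN1A, GDF15 and CYFIP2, and overlap for TP63 and MDM2.

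Of the 5 genes with roles in the feedback control of p53, 2 rose, 1 fell and 2 did not pass the test. Counts per role are given as a description, and of all genes tested 19.3% rose and 18.4% fell. MDM2, the ubiquitin ligase of p53, had 702, 678 and 650.3 normalized counts in vehicle and 715, 531 and 526 after guadecitabine. Guadecitabine replicate 1 lay above all vehicle libraries and replicates 2 and 3 below them, and the log2 fold change of -0.19 (adjusted p = 0.299) had a 95% interval of -0.50 to 0.12. Without guadecitabine replicate 1, MDM2 passed the threshold and was lower, at -0.36 on the log2 scale (adjusted p = 0.0163 from edgeR). Of the exon bases of MDM2, 11.1% lie under exons of CPM and 1 other gene on the opposite strand. PPM1D, which encodes the phosphatase Wip1 that dampens p53 signalling, rose from 217, 208 and 251 to 339.9, 279 and 336 normalized counts, a log2 change of 0.50 ± 0.139 (SE, adjusted p = 0.0202). The PPM1D call was lost without vehicle replicate 1, vehicle replicate 2 or guadecitabine replicate 3, with adjusted p-values of 0.0821, 0.0851 and 0.0771 from edgeR. ZMAT3, a zinc finger RNA-binding protein, had 158, 146 and 174 normalized counts in vehicle and 238, 191 and 219 after guadecitabine. Its log2 fold change of 0.44 (adjusted p = 0.0454) was close to the threshold and passed it in 4 of 13 alternative fits, and was lost without vehicle replicate 1 (adjusted p = 0.128), vehicle replicate 2 (0.155), guadecitabine replicate 1 (0.0971) or guadecitabine replicate 3 (0.114, edgeR). CCNG1, which encodes cyclin G1, a partner of the phosphatase PP2A, fell from 1582, 1649 and 1403 to 982, 915 and 898 normalized counts, a log2 change of -0.73 ± 0.106 (SE, adjusted p = 7.66e-04). PHLDA3, an inhibitor of AKT, had 424 to 652 normalized counts in vehicle and 349 to 637 after guadecitabine.

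Among 8 genes of cell cycle arrest and growth control, 4 rose, 1 fell and 3 did not pass the test. Over all genes tested the shares were 19.3% higher and 18.4% lower, and the difference was not tested. CDKN1A, on chr6:36644237-36655116 (plus strand), had 5206, 4388 and 5000 counts in vehicle replicates 1, 2 and 3 and 15211, 8538 and 14262 after guadecitabine, although guadecitabine replicate 2 was the smallest library. In normalized counts these were 4957, 4632 and 3843 in vehicle and 12309.9, 17368 and 14392 after guadecitabine, and the lowest guadecitabine library lay far above the highest vehicle library. CDKN1A rose 3.28-fold, from 4477 ± 573 to 14690.2 ± 2542 normalized counts (SD, n = 3), a log2 change of 1.71 ± 0.150 (SE, adjusted p = 4.06e-05). Leaving out any single library gave values of 1.58 to 1.83 on the log2 scale. The RNA called DINOL lies opposite to 4.87% of the exon bases of CDKN1A. The exact permutation test, two-sided, gave p = 0.1 for CDKN1A and for every other gene whose groups did not overlap, the smallest p that 3 against 3 libraries allow.

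GADD45A, a stress sensor that binds cyclin B1 with CDK1 and PCNA, had 1146, 1014 and 1082 normalized counts in vehicle and 1419, 1625 and 1455 after guadecitabine, a log2 change of 0.47 ± 0.106 (SE, adjusted p = 0.00784). PLK3, a stress-responsive kinase, rose from 368, 428 and 478 to 526, 588 and 636 normalized counts, a log2 change of 0.45 ± 0.132 (SE, adjusted p = 0.0241). Leaving out 1 of 3 libraries ended the PLK3 call, with adjusted p-values of 0.106, 0.0689 and 0.106 from edgeR for vehicle replicate 1, vehicle replicate 2 and guadecitabine replicate 3. SERTAD1, which binds CDK4 and promotes rather than stops the cell cycle, had 966, 999.7 and 733 normalized counts in vehicle and 1088, 1892 and 1414 after guadecitabine. Its log2 fold change was 0.70 ± 0.201 (SE, adjusted p = 0.0236), and without guadecitabine replicate 2, its highest library, it was 0.48 (adjusted p = 0.0606 from edgeR). Without guadecitabine replicate 3 the adjusted p of SERTAD1 was 0.0789 from edgeR. CCNG2, an unconventional cyclin linked to growth arrest, moved the other way, from 811, 720.0 and 680.3 to 397, 374 and 399.6 normalized counts. It fell 1.89-fold, a log2 change of -0.92 ± 0.109 (SE, adjusted p = 2.39e-04). The remaining 3 genes did not pass the test, with log2 fold changes of 0.25 (adjusted p = 0.115) for PLK2, a centriole kinase, 0.04 (adjusted p = 0.862) for SFN, the 14-3-3 sigma protein that holds CDK1 in the cytoplasm, and 0.40 (adjusted p = 0.446) for BTG2, an antiproliferative regulator of mRNA decay. SFN was at 4500.5 to 6773 normalized counts in vehicle and 4814 to 6855 after guadecitabine. The groups of PLK2 did not overlap, with all guadecitabine libraries above all vehicle libraries, and its 95% interval was -0.01 to 0.52 on the log2 scale.

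Of the 3 DNA repair genes, 1 fell and 2 did not pass the test, where 18.4% of all genes tested fell. XPC, the damage sensor of nucleotide excision repair, fell from 378, 400.1 and 390.5 to 257, 224 and 245 normalized counts, a log2 change of -0.68 ± 0.115 (SE, adjusted p = 0.0017), and 24.6% of its exon bases lie under opposite-strand exons of XPC-AS1 and of 1 unnamed gene. DDB2, which recognises ultraviolet lesions, had 410.4, 380.0 and 414 normalized counts in vehicle and 369.8, 356 and 367 after guadecitabine. These groups did not overlap but were close, and the log2 fold change of DDB2 was -0.14 (adjusted p = 0.32) with a 95% interval of -0.38 to 0.09. POLH, the translesion polymerase eta, had 1101, 1019 and 981 and then 1251, 1125 and 1154 normalized counts, a log2 fold change of 0.19 (adjusted p = 0.179), with its guadecitabine libraries all above its vehicle libraries.

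Of the redox and metabolism genes listed under their symbols, 1 of 4 passed the test, against 37.7% of all genes tested. TP53I3, also known as PIG3 and an oxidoreductase of the quinone reductase family, had 495, 535 and 542 normalized counts in vehicle and 588, 688 and 724 after guadecitabine. Its log2 fold change of 0.34 (adjusted p = 0.0414) was small and passed the threshold in 5 of 13 alternative fits. It was lost without any 1 library but guadecitabine replicate 1, at adjusted p-values of 0.0597 (without vehicle replicate 3) to 0.171 (without guadecitabine replicate 3) from edgeR. The sestrins SESN1 and SESN2, inhibitors of mTORC1 signalling, had log2 fold changes of 0.04 (adjusted p = 0.906) and 0.21 (adjusted p = 0.183), and the groups overlapped for SESN1 but not for SESN2. FDXR, the mitochondrial ferredoxin reductase, had 387, 422 and 347 normalized counts in vehicle and 223, 389 and 262 after guadecitabine. Guadecitabine replicate 2 lay within the vehicle range and the other two below it, and the log2 fold change of -0.43 (adjusted p = 0.114) became -0.67 (adjusted p = 0.00804 from edgeR) without that library. C12orf5, the older symbol of TIGAR, a phosphatase that slows glycolysis and feeds the pentose phosphate pathway, had 197, 229 and 225 normalized counts in vehicle and 562, 531 and 464 after guadecitabine. It rose 2.39-fold, a log2 change of 1.25 ± 0.126 (SE, adjusted p = 8.62e-05), and is not counted among the 9 genes that rose. Of its exon bases, 20.3% also lie under exons of ENSG00000285901 on the same strand, and reads there cannot be told apart.

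Of 9 genes linked to apoptosis and mitochondria, 6 could be tested, of which 1 rose and 1 fell. Of all genes tested, 19.3% rose and 18.4% fell. AEN, an exonuclease that takes part in apoptotic DNA breakdown, had 836, 729 and 654 normalized counts in vehicle and 1191, 1271 and 1256 after guadecitabine, a log2 change of 0.74 ± 0.116 (SE, adjusted p = 0.00112). CYFIP2, which binds FMRP and belongs to the WAVE complex of actin regulation, had 59, 62 and 128 counts in vehicle and 21, 8 and 18 after guadecitabine, or 56.2, 65.5 and 98.4 and 17.0, 16.3 and 18.2 normalized counts. The guadecitabine libraries were close to each other, while vehicle replicate 3 lay above the other vehicle libraries. CYFIP2 was a weakly expressed gene in all of them. Exons of ADAM19 and other genes on the opposite strand cover 5.92% of the exon bases of CYFIP2. The log2 change was -2.09 ± 0.376 (SE, adjusted p = 0.00246), and without vehicle replicate 3 it was -1.81 (adjusted p = 4.27e-04 from edgeR). The log2 fold changes of TP53I11, PERP, TRIAP1 and TP53INP1 did not pass the threshold and were 0.24, 0.16, 0.08 and -0.03. PERP is a desmosomal membrane protein, TRIAP1 an inhibitor of apoptosis and TP53INP1 a stress protein of the nucleus and autophagosome. PERP and TRIAP1 overlapped between groups, as did TP53INP1, whereas for TP53I11, with 1027, 921 and 949 and then 1067, 1239 and 1135 normalized counts, the groups were apart, guadecitabine being higher (adjusted p = 0.0987 from edgeR).

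EDA2R, SPATA18 and TP53AIP1 did not pass the filter on low counts and were not tested. EDA2R, a receptor of the TNF receptor superfamily, had 0, 0 and 38 counts in vehicle replicates 1, 2 and 3 and 0 counts in each guadecitabine library. SPATA18, a mitochondrial quality control gene, had 3, 1 and 35 counts in vehicle and 3, 1 and 3 after guadecitabine. TP53AIP1, a mitochondrial inducer of apoptosis, had 0, 0 and 16 and 1, 0 and 1 counts. In each of these 3 genes the counts in vehicle replicate 3 were the only ones above the floor of 3 counts per library. The other libraries had 0 counts of EDA2R, 1 to 3 of SPATA18 and 0 or 1 of TP53AIP1, at or under that floor.

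GDF15, a secreted cytokine of the TGF-beta superfamily induced by many stresses, had 203, 194 and 258 counts in vehicle and 294, 153 and 278 after guadecitabine. In normalized counts these were 193, 205 and 198 and 238, 311 and 281, and every guadecitabine library exceeded every vehicle library. The log2 change of GDF15 was 0.47 ± 0.141 (SE, adjusted p = 0.0286), and this call was kept in 6 of 13 alternative fits. It was lost without any 1 library but guadecitabine replicate 1, at adjusted p-values of 0.0502 (without vehicle replicate 3) to 0.102 (without vehicle replicate 1) from edgeR.

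The groups of all 14 genes that changed did not overlap. Counting those that did not pass as well, the groups were apart in 19 of 29 tested members, and in 51.6% of all genes tested. Of the 15 tested members that did not pass, 14 had a 95% interval within 1 log2 unit of 0 and 10 within a 1.5-fold change, BTG2 being the exception to the former. BTG2 had 22.9, 38.0 and 45.4 normalized counts in vehicle and 49.4, 50.9 and 41.4 after guadecitabine, with a 95% interval of -0.47 to 1.28. Of the 14 calls, those of CDKN1A, TP73, CCNG2 and CYFIP2 were kept in every alternative fit that gave a value, and those of AEN, GADD45A, CCNG1 and XPC were lost only when a change of at least 1.5-fold was required. No called gene changed sign in any of the 13 alternatives. Leaving out 1 library moved the count of genes that rose from 9 to 4 without vehicle replicate 1 or without vehicle replicate 2. It was 3 without guadecitabine replicate 3 and 6 to 8 without each of the other 3. In the same order, calls in either direction over all genes went from 5022 to 3492 and 3627, and to 3335 without guadecitabine replicate 3.

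**Figure D3:**
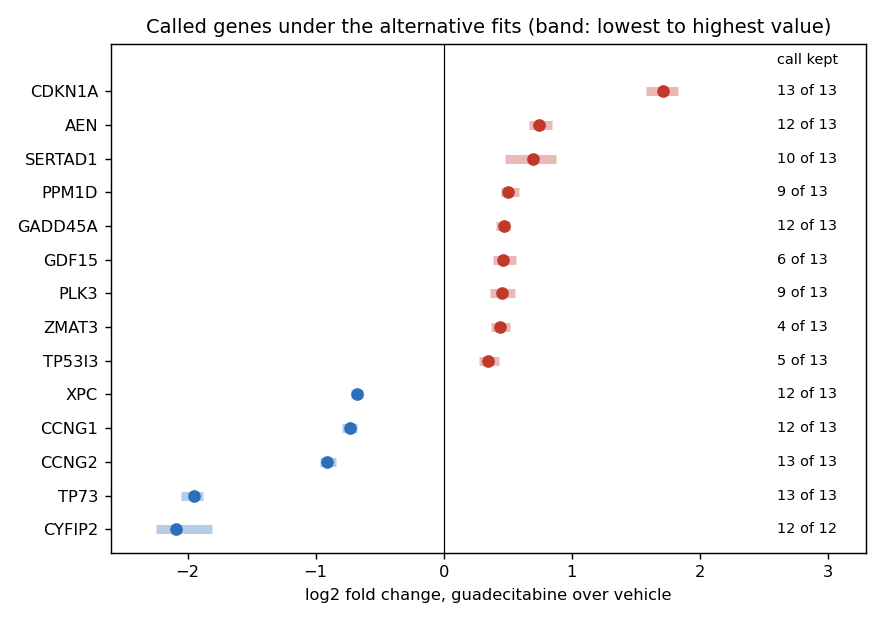
Log2 fold change of the 14 called genes (points) with the lowest and highest value over the alternative fits (bands), and the number of alternatives that kept the call. CYFIP2 has 12 alternatives and the others 13, and no band reaches 0.

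Per length of counted exon, the members spanned a wide range in vehicle. SFN had the highest level with 4237 ± 868 reads per kb (SD, n = 3), followed by CDKN1A with 2128 ± 272, PLK2 with 1597 ± 189 and GADD45A with 846 ± 51.6. After guadecitabine CDKN1A was the highest with 6982 ± 1208 reads per kb, above SFN with 4376 ± 783, PLK2 with 1906 ± 139, SERTAD1 with 1216 ± 336 and GADD45A with 1173 ± 86.3. SERTAD1 and GADD45A had levels within their spread of each other in both groups. In the middle of the vehicle order, FDXR at 219 ± 21.2 and DDB2 at 217 ± 10.1 reads per kb did not differ beyond their spread, and neither did PLK3 at 187 ± 24.4 and GDF15 at 166 ± 4.81. MDM2 was at 92.3 ± 3.51 reads per kb, TP73 at 45.0 ± 5.49 and TP63 at 8.49 ± 1.25, near the lower end of the tested members. TP73 lay close to PPM1D, at 47.2 ± 4.79 reads per kb in vehicle, and after guadecitabine TP73, at 11.6 ± 1.07, lay near TP63, at 7.92 ± 1.47, rather than near PPM1D, at 66.6 ± 7.18.

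**Figure D4:**
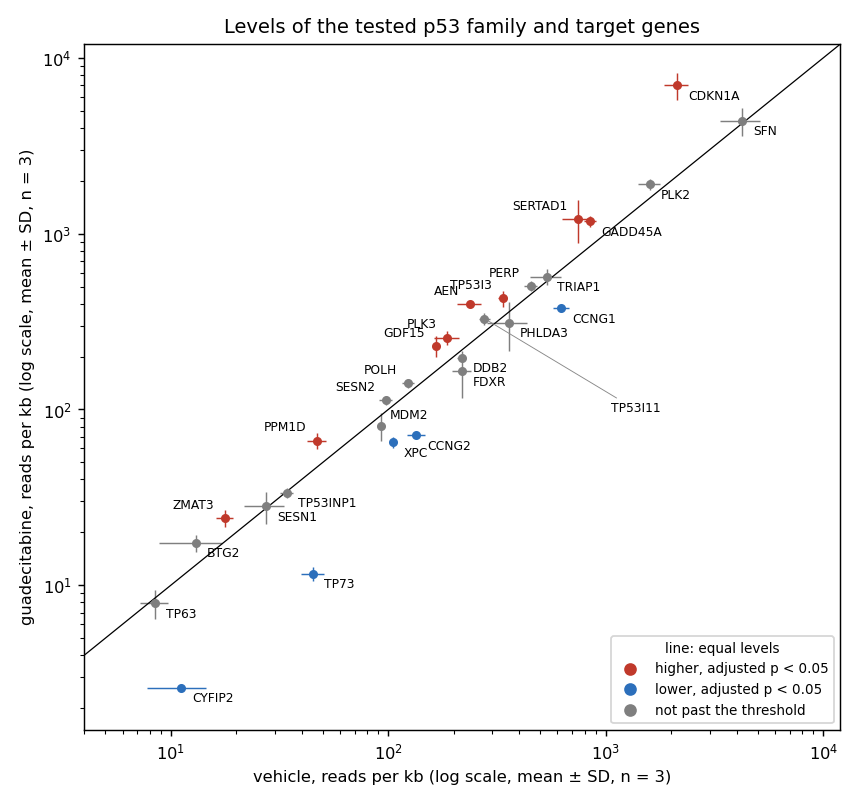
Level of the 29 tested members in reads per kb of counted exon, vehicle on the x axis and guadecitabine on the y axis, both on a log scale, with the mean and SD of 3 libraries and a line of equal levels. CDKN1A rises above the line to the top of the plot, while TP73 and CYFIP2 lie well below it.

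CpG sites were counted within 500 bp on either side of the deposited start of each transcript, since the drug inhibits DNA methyltransferases. The 32 members had 5 to 127 CpG sites in this window with a median of 78.5, against a median of 72 for the genes tested. Members that rose had a median of 77, those that fell 90 and those that did not pass 85, against 72 for all genes that rose and 74 for all that fell. TP73, which fell, had the most CpG sites of the members with 127, and CDKN1A, which rose the most, the fewest with 5. The start listed for CDKN1A is that of 1 of its transcripts, and in the 300 bases that RefSeq gives as its promoter on GRCh38.p14 there were 29 CpG sites, against a median of 14 over all RefSeq promoters. Of the 33 listed genes, 30 had such a RefSeq promoter. Their median was 28.5 CpG sites, taking the promoter with the most sites in each gene. Methylation was not analysed here.

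A list of 44 other p53 targets, in which the members are not included, was drawn from general knowledge of the p53 response. It was chosen with earlier results of these data known. After guadecitabine 11 rose and 11 fell, or 25.0% each, against 19.3% and 18.4% of all genes tested. The median log2 fold change was -0.11, against 0.02, and these differences were not tested. The 5 largest rises by the rule for named genes were TSPYL2, a nucleosome assembly relative, with a log2 fold change of 2.26 (adjusted p = 1.96e-06), the stress transcription factor ATF3 with 1.31 (adjusted p = 6.08e-05) and the death receptor gene FAS with 1.28 (adjusted p = 0.00307), followed by the autophagy regulator DRAM1 with 1.11 (adjusted p = 1.26e-04) and PMAIP1, which encodes the BH3-only protein NOXA, with 1.08 (adjusted p = 1.63e-04). FAS had 73.3, 90.8 and 131 normalized counts in vehicle and 289, 195 and 233 after guadecitabine, and PMAIP1 had 2642, 2586 and 2102 and 5200.4, 5576 and 4757. Both genes were thus higher in each guadecitabine library than in each vehicle library. The 5 largest falls were STEAP3, an endosomal iron reductase, with -1.11 (adjusted p = 6.62e-05), PIDD1, a scaffold of caspase-2 activation, with -0.78 (adjusted p = 0.0128), RAP2B with -0.73 (adjusted p = 7.31e-04), PLXNB2 with -0.71 (adjusted p = 0.00129) and KITLG with -0.68 (adjusted p = 0.0124). The PIDD1 call was lost without vehicle replicate 2 (adjusted p = 0.0528) or guadecitabine replicate 3 (0.0738), and that of KITLG without vehicle replicate 1 (0.0551) or guadecitabine replicate 3 (0.0584, edgeR). Without guadecitabine replicate 3 the counts were 7 higher and 6 lower, and without vehicle replicate 1 they were 9 and 6.

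Genes that p53 is known to lower through p21 and the DREAM complex, which represses cell cycle genes, were taken as a further list of 18. This list was also chosen with earlier results of these data known. Of its genes, 7 fell (38.9%) and 2 rose (11.1%), against 18.4% and 19.3% of all genes tested. The median log2 fold change was -0.29, against 0.02, and these differences were not tested. MCM5, a subunit of the replicative helicase, fell from 4006, 4323 and 3389.8 to 1670.3, 1804 and 1972 normalized counts, a log2 change of -1.11 ± 0.122 (SE, adjusted p = 1.55e-04). The next largest falls were those of BIRC5 with -0.74 (adjusted p = 0.00152), CCNB2 with -0.71 (adjusted p = 0.00136), PLK1 with -0.67 (adjusted p = 0.00104) and CCNB1 with -0.54 (adjusted p = 0.00618). The 2 that rose were CDC25A, a phosphatase that activates cyclin-dependent kinases, with 0.72 (adjusted p = 0.00155), and the checkpoint kinase CHEK1, with 0.45 (adjusted p = 0.0327). The CHEK1 call was lost without any 1 library but guadecitabine replicate 2, at adjusted p-values of 0.0519 (without vehicle replicate 3) to 0.101 (without vehicle replicate 2) from edgeR. The count of genes that rose in this list was 1 without any one of 5 libraries and 4 without guadecitabine replicate 2, while the count that fell was 5 to 9 with each library left out.

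**Figure D5:**
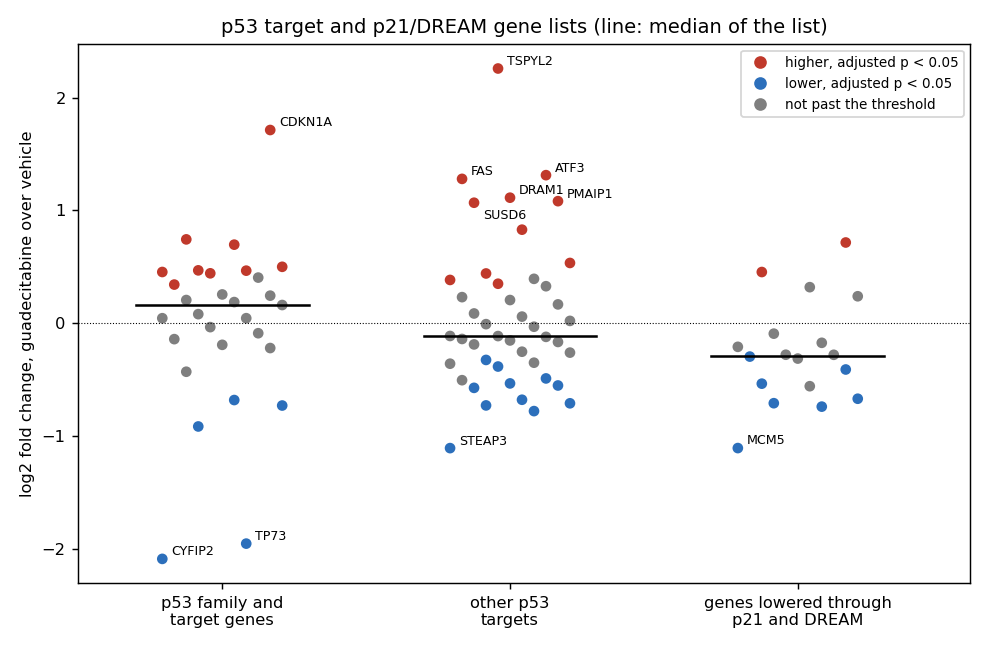
Log2 fold change of each gene in the 3 lists, guadecitabine over vehicle, with a line at the median of each list. Points lie on both sides of 0 in every list, and genes beyond 1 log2 unit are named, with TSPYL2 highest at 2.26 and CYFIP2 lowest at -2.09.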

How the data were processed

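RNA was prepared with the TruSeq RNA kit and sequenced on a HiSeq 1500. The authors aligned reads to hg19 with STAR (2.3.1z in the submitters' processing notes), counted reads in exons with iRNA-seq and deposited raw counts with 1 RefSeq transcript per gene symbol. The deposited table also holds regularised log2 values and the authors' own DESeq2 comparison (fold change, its error, statistic and p-values), which were not used here. The treatment of multiply mapping reads and the use of strand are not given in the sources used here.

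The 3 vehicle and 3 guadecitabine libraries were compared on their counts in edgeR 4.0.16 under R 4.3.3 (TMM, filterByExpr with a minimum count of 10, quasi-likelihood test, no covariate, Benjamini-Hochberg adjustment over 13322 genes, threshold 0.05), a fit first tested on simulated data. Standard errors came from the F statistic. Reads per kb were normalized counts divided by the counted exon length. Intervals cover the spread between libraries, the floor of 3 counts covers counting error only, and reads are not independent molecules. Gene models were those of GENCODE on GRCh37, and site searches used Python 3.11.15.

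No pairing was used, since the study's methods name none. Same-numbered libraries did not deviate together (correlations -0.050, 0.049 and -0.037), which does not show whether they came from 1 experiment. Alternatives were a replicate block, the Wald test of DESeq2 1.42.0, its size factors, library totals only, no filter, at least 10 counts in every library, a fold threshold of 1.5 and each library left out. Members, lists and roles were chosen with earlier results of these data known. All members, and per further list the 5 largest rises and falls with an adjusted p under 0.05, a mean of at least 100 normalized counts and no overlap between groups were named. 1 further gene that the rule names is not reported here.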

Additional observations from a re-analysis of the deposited data

How the results depend on the processing

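Testing against a change of 1.5-fold left 1514 of the 5022 called genes, with 1 member higher (CDKN1A) and 3 lower. It left 6 other p53 targets higher and 1 lower, and 0 genes of the p21 and DREAM list higher and 1 lower. With each library left out in turn, 3335 to 5577 genes passed, 3 to 8 members rose, 7 to 11 other targets rose and 6 to 12 fell, and 1 to 4 genes of the p21 and DREAM list rose. Fewest members rose without guadecitabine replicate 3 (3), vehicle replicate 1 (4) and vehicle replicate 2 (4). The Wald test of DESeq2 gave 6 members higher and 5 lower. The numbers of the libraries share no stated batch, and whether same-numbered libraries came from 1 experiment is not stated. A fit with the replicate number as a block called 4654 genes, 8 members higher and 5 lower, ZMAT3 being lost. Among the named genes, direction turned only in 5 members that did not pass the test. Library totals alone gave TP53INP1 2.43e-05 on the log2 scale. Left-out libraries gave log2 fold changes of -0.22 to 0.040 for TP63, -0.098 to 0.21 for SFN, -0.14 to 0.21 for SESN1, -0.081 to 0.024 for TP53INP1 and -0.051 to 0.15 for TRIAP1. Without a filter the median of all genes shifted by -0.13 on the log2 scale and with DESeq2 by -0.15, over more genes. The cause of these differences was not tested. Counts of at most 3 outside vehicle replicate 3 left 3 members untested, and 3 libraries a group limit every value.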
